A study of Mus musculus with 4 samples.

Results

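The genes described here are the matrix metalloproteinases (Mmp), their tissue inhibitors (Timp), the secreted Adamts proteases and the Adamts-like (Adamtsl) proteins. They were chosen by symbol alone: every protein-coding gene of GENCODE M21 named Mmp, Adamts, Adamtsl or Timp with a number (and, for Mmp, an a or b) was taken. This gave 50 of 54532 genes, of which 22 were Mmp, 19 Adamts, 5 Adamtsl and 4 Timp genes. Mmp1a, which the annotation lists as a polymorphic pseudogene, stood just outside the rule and held 0 reads in all 4 libraries.

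RNA was sequenced in bulk from C3H10T1/2, an established line of mouse mesenchymal stem cells. DKO, the DNMT3A and DNMT3B double knockout, had 2 libraries, from clones 1 and 5. PRDX1MT had 1 library, from 1 clone edited by CRISPR at the splice acceptor of Prdx1 intron 5 and also labelled as a Prdx1 knockout, and unedited WT had 1. All groups shared the parental line, the serum-containing medium and the stranded total RNA kit with removal of ribosomal RNA. Neither the state of Prdx1 in the DKO clones nor how the clones were derived is given in the labels. The series is titled for promoter silencing by readthrough transcription, so the comparisons ask how genes are expressed without a normal Prdx1 end or without the de novo DNA methyltransferases.

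Mmp proteins are zinc endopeptidases that are made as inactive proenzymes and cut collagens, proteoglycans and other matrix proteins. Timp proteins bind the active enzymes one to one, and the balance of the classes sets how fast matrix is turned over around stromal cells. Adamts proteases add thrombospondin repeats that hold them in the matrix, and they process procollagens or cut the large proteoglycans, whereas Adamtsl proteins keep those repeats and have no protease domain. Dnmt3a and Dnmt3b encode the enzymes that place new methyl groups on cytosines of CG dinucleotides.

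Libraries held 27570136 to 37685798 counts, so that 3 counts were worth 0.0729 to 0.121 CPM (counts divided by library size, scaled by edgeR's trimmed mean of M-values, TMM, here and below). Prdx1 stood at 392 CPM in DKO clone 1, 332 in DKO clone 5, 31.2 in PRDX1MT and 399 in WT. Dnmt3a stood at 31.3 CPM in clone 1, 25.9 in clone 5, 80.9 in PRDX1MT and 43.7 in WT. Dnmt3b stood at 2.83 CPM in clone 1, 2.03 in clone 5, 3.74 in PRDX1MT and 3.28 in WT. Counts over a whole gene do not show which exons were edited. All 12 mesenchymal markers had reads in every library, with summed levels of 16737 CPM in clone 1, 35615 in clone 5, 28897 in PRDX1MT and 17725 in WT. Most of each sum was Col1a1 (6539.6 CPM in clone 1, 19489 in clone 5, 18421 in PRDX1MT and 9575 in WT) and Col1a2, and single markers differed otherwise. Alcam had 4.12 CPM in clone 1, 81.1 in clone 5, 49.5 in PRDX1MT and 78.0 in WT. Nt5e was low in every library, with 0.421 CPM in clone 1, 0.581 in clone 5, 0.764 in PRDX1MT and 0.802 in WT. Ly6a had 138 and 317 CPM in DKO clones 1 and 5, 123 in PRDX1MT and 98.1 in WT. Thy1, the only one of the 12 past the edgeR test, fell to 0.757 and 1.38 CPM in DKO clones 1 and 5, with 0.884 CPM in PRDX1MT, against 29.0 CPM in WT (Benjamini-Hochberg adjusted p = 0.0321 for DKO against WT). It was not called with the 1 CPM minimum, nor with either clone left out and WT and PRDX1MT joined. Of 8 haematopoietic markers, Adgre1 and Tyrobp were at 0 in all 4 libraries, and the list summed to 22.0 and 8.53 CPM in DKO clones 1 and 5, 13.3 in PRDX1MT and 9.55 in WT. The 5 endothelial markers summed to 5.91 to 16.8 CPM and the 6 epithelial markers to 0.645 to 2.11 CPM, with Epcam at 0. The part of these differences in the results below was not tested.

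The promoters of the family ranged widely in base composition. RefSeq promoter entries (GRCm38.p6) were found for 35 of the 50 members, as 38 starts, and the 250 bases before each start were examined. Of the members, 9 lie together on chromosome 9 as the collagenase and stromelysin cluster, which was almost without reads in these cells. The motif TGANTCA was searched for because AP-1 (the Fos and Jun factors) is the textbook regulator of these Mmp genes. The motif allows any middle base, so it is looser than the AP-1 site TGACTCA or TGAGTCA. It reads the same on both strands. It stood before 7 of the 9 cluster genes, in 63.6% of their 11 windows, and in 6.75% of all 32851 promoter windows. For Mmp12 the match lay only before a second RefSeq start, 2993 bp from the annotated gene start. The Mmp20 match was TGAATCA, which the looser motif accepts and the AP-1 site does not. The motif stood in none of the 21 starts found for 20 of the 31 members expressed well enough to be tested. No promoter entry was found for the other tested members, among them Mmp2, Adamts5 and Mmp16. A match describes letters only and shows no binding. The nearest 100 bases of 5 cluster genes are shown, with the motif in capitals, because the motif counts rest on them.
Mmp13, chr9:7272414-7272513 (+ strand): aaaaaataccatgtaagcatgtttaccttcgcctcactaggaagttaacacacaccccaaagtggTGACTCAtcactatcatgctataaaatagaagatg
Mmp3, chr9:7445722-7445821 (+ strand): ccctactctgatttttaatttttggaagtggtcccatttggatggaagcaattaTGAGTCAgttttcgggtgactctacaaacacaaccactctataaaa
Mmp10, chr9:7502242-7502341 (+ strand): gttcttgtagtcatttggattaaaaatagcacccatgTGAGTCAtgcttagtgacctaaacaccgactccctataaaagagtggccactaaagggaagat
Mmp20, chr9:7628131-7628230 (+ strand): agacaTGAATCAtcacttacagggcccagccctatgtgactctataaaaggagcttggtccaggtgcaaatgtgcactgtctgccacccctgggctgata
Mmp7, chr9:7691990-7692089 (+ strand): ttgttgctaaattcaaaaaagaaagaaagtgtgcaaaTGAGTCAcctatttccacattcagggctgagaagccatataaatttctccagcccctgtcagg

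CG dinucleotides, the sites that Dnmt3a and Dnmt3b act on, were counted in the same windows. The median count was 15 CG in the 250 bases of the 21 starts found for 20 tested members (range 1 to 39). It was 1 CG in 11 starts of the cluster (range 0 to 7) and 6 CG in all promoters. The corresponding GC contents were 63.6%, 40.0% and 52.4%. The letters TATAAA on either strand were in 54.5% of cluster starts, 9.52% of starts of tested members and 12.4% of all promoters. The windows of 3 members are shown with each CG in capitals. Adamts1, with 15 CG, was higher in both DKO clones than in WT. Adamts14 was lower in both clones, and its window, cut to 231 bases that lie before the annotated gene, holds 32 CG. Timp1, with 6 CG, was among the most abundant members.
Adamts1, chr16:85803114-85803363 (- strand): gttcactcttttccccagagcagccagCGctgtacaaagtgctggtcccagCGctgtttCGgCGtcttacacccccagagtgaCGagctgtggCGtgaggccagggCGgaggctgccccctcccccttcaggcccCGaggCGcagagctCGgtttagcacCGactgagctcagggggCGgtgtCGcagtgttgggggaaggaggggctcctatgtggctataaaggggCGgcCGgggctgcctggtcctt
Adamts14, chr10:61273439-61273669 (- strand): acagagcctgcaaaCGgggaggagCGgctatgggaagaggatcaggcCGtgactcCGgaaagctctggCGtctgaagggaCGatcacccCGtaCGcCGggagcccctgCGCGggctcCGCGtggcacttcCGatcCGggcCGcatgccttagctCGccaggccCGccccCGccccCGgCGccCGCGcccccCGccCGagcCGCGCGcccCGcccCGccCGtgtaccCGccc
Timp1, chrX:20869916-20870165 (+ strand): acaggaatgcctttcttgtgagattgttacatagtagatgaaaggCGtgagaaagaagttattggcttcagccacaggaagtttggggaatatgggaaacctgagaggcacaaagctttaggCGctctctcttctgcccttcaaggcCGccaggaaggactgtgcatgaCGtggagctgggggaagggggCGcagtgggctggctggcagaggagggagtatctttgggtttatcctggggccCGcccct

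**Figure D1:**
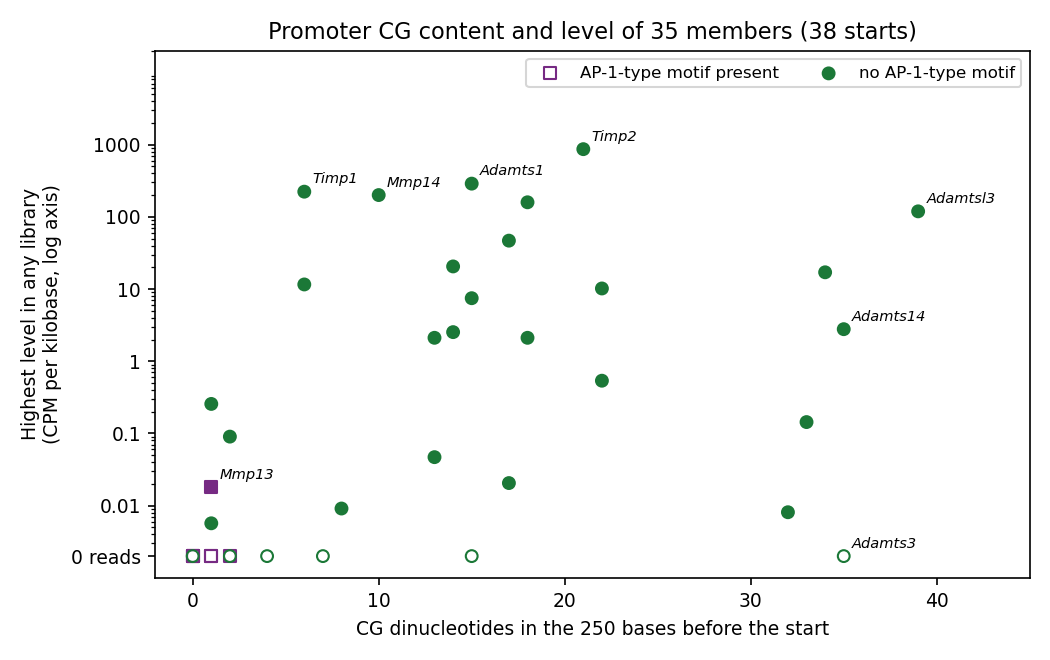
Number of CG dinucleotides in the 250 bases before 38 RefSeq starts of 35 members (horizontal) against the member's highest level in any of the 4 libraries (CPM per kilobase of exons, log axis). Open symbols mark genes with 0 reads in all 4 libraries. The starts with an AP-1-type motif (squares) sit at the bottom left, while the abundant members span 6 CG (Timp1) to 39 CG (Adamtsl3), and Adamts3 with 35 CG had 0 reads.

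CG content did not order the members in full. Adamts3, a procollagen N-proteinase with 35 CG in its window, had 0 reads in every library, and Timp1 with 6 CG was among the 10 highest members per kilobase. The part of these letters in expression was not tested.

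In all libraries the family was led by a few genes, and it took a larger share of counts in the DKO clones. All 50 members together held 0.963% of counts in clone 1, 0.846% in clone 5, 0.581% in PRDX1MT and 0.548% in WT. Per kilobase of exons, the Timp genes summed to 999.9 CPM in clone 1, 932 in clone 5, 567 in PRDX1MT and 476 in WT. The Mmp genes summed to 591 CPM per kilobase in clone 1, 335 in clone 5, 231 in PRDX1MT and 197 in WT. Both sums were higher in either DKO clone than in the other libraries. The Adamts genes summed to 326 CPM per kilobase in clone 1, 434 in clone 5, 212 in PRDX1MT and 172 in WT. The Adamtsl genes summed to 117 and 106 CPM per kilobase in DKO clones 1 and 5, 158 in PRDX1MT and 94.9 in WT, so PRDX1MT was highest in this class. The summed Timp level per kilobase was 1.69 times the Mmp level in clone 1, 2.79 times in clone 5, 2.46 times in PRDX1MT and 2.42 times in WT.

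**Figure D2:**
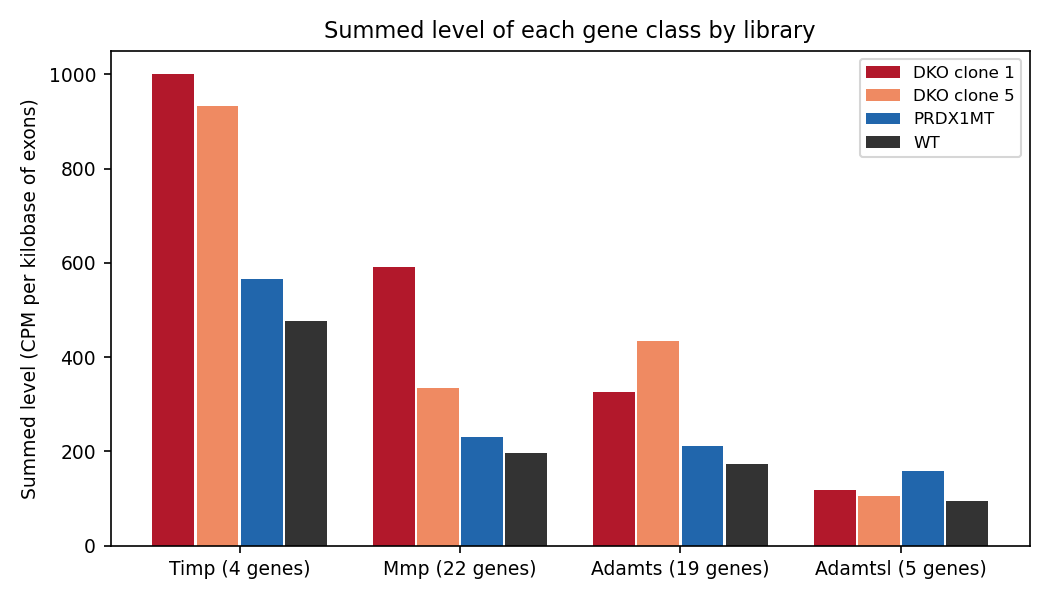
Summed level of each gene class (CPM per kilobase of exons, bars from 0) in each of the 4 libraries, 1 bar per library with no error bar. The Timp, Mmp and Adamts bars of both DKO clones stand above those of PRDX1MT and WT, and the tallest Adamtsl bar is PRDX1MT.

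One gene dominated each class in every library. Timp2 made up 86.7% of the Timp level per kilobase in clone 1, 66.2% in clone 5, 59.5% in PRDX1MT and 57.5% in WT. Mmp2 made up 46.4% to 60.6% of the Mmp level, Adamts1 48.0% to 66.8% of the Adamts level, and Adamtsl3 51.3% to 75.5% of the Adamtsl level. By the highest level per kilobase in any library, the order was Timp2, Mmp2, Adamts1, Timp1, Mmp14, Timp3, Adamtsl3, Adamts5, Adamtsl4 and Mmp16.

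**Figure D3:**
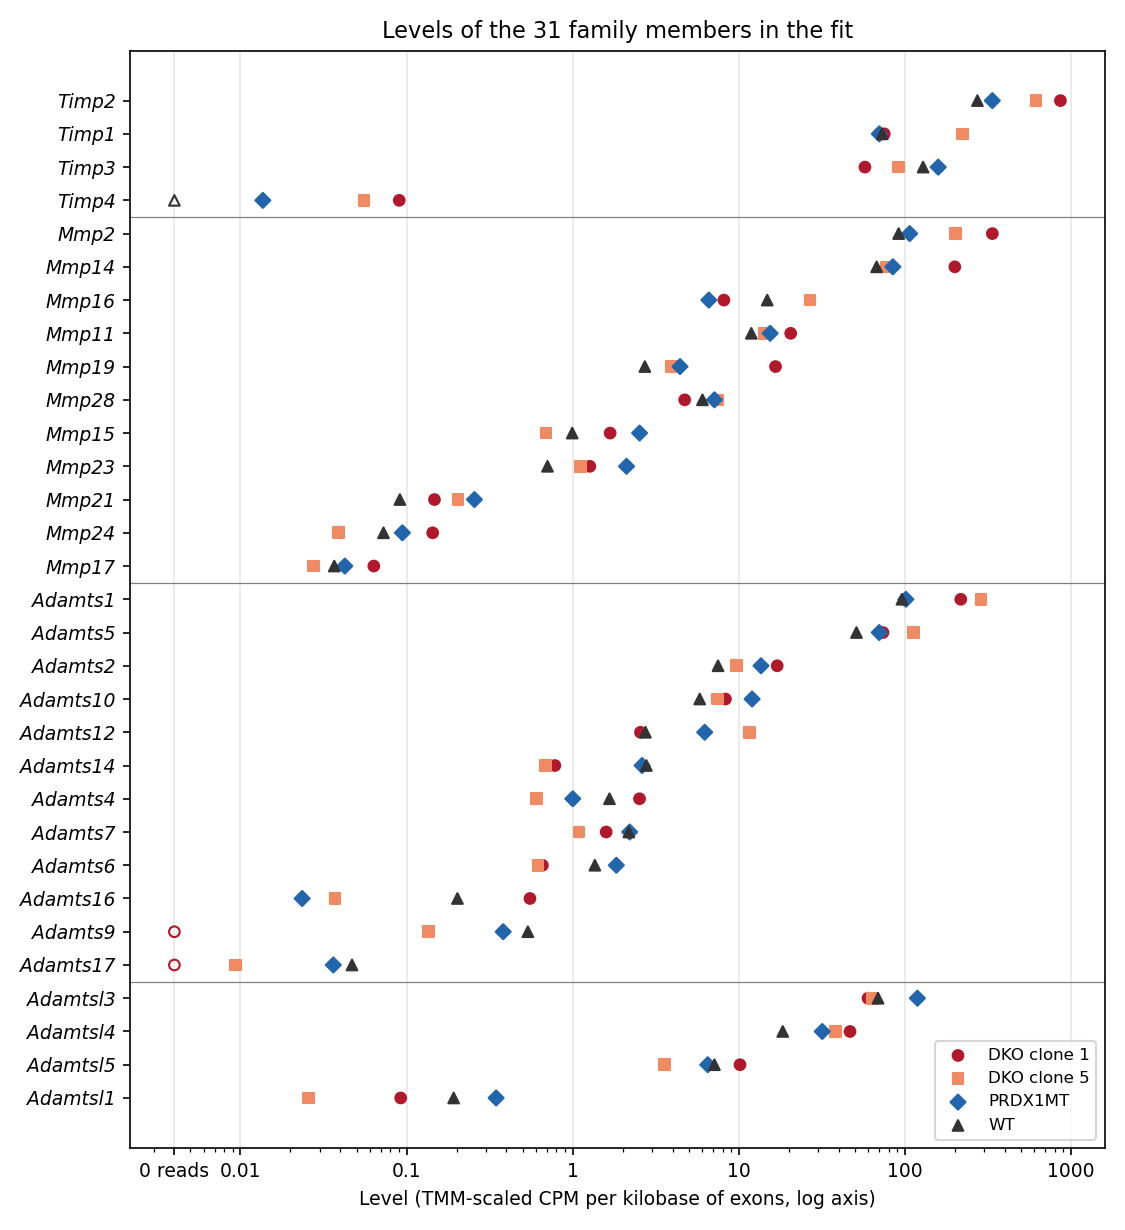
Level of each of the 31 tested members (TMM-scaled CPM per kilobase of exons, log axis) in the 4 libraries, grouped by class and ordered by highest level. Open symbols at the left mark 0 reads, as for Adamts9 and Adamts17 in DKO clone 1 and Timp4 in WT, and the DKO symbols of Timp2, Mmp2 and Adamts1 lie to the right of PRDX1MT and WT.

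Of the 50 members, 31 held enough reads to be tested among 19446 genes, 11 held 0 reads in every library and 8 others held at most 9 reads in any library. A member could pass this filter through the group in which it was high. In the comparison of DKO with WT, none of the 31 members passed edgeR's quasi-likelihood test with Benjamini-Hochberg adjustment, where 0.468% of all genes passed. DESeq2 also called none of the 29 members it gave an adjusted p, where it called 1.46% of all genes. At an unadjusted p under 0.05, edgeR gave 5 members (Adamts14, Timp4, Mmp2, Adamtsl4 and Adamts1), where 5.08% of all genes passed. Of these 5, Timp4 passed the filter on low counts through DKO alone. DESeq2 gave 7 at that p, where 4.3% of all genes passed. The median log2 ratio of DKO to WT was 0.44 over the 31 members and 0.03 over all genes tested. It was above 0 in 21 members and below in 10, where 52.3% of all genes tested were above 0. Only the 2 clones give a spread for this test, which assumes that the single libraries of WT and PRDX1MT vary as the clones do, and spread between clones can be technical or clonal.

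Single libraries were therefore also compared by size. A member passed the size rule with a ratio of at least 2-fold, at least 100 reads in both libraries together and a 95% exact interval of the ratio that excluded equality. These intervals cover counting error only. Against WT, clone 1 had 8 of 26 members higher and 5 lower by the size rule, where 8.4% and 7.56% of all eligible genes passed. Against WT, clone 5 had 7 of 25 higher and 5 lower, where 5.69% and 8.58% of all genes passed. In both clones at once, Timp2, Mmp2, Adamts1 and Adamtsl4 were higher than in WT (4 of 25, with 1.65% of all genes). Adamts14, Adamts6, Adamts9 and Adamtsl1 were lower in both clones (4 of 25, with 3.85% of all genes). Both clones were set against the same WT library. Adamtsl4 no longer passed in clone 5 with total-count scaling, nor Adamtsl1 in clone 1 with median-of-ratios scaling, and both kept their direction.

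**Figure D4:**
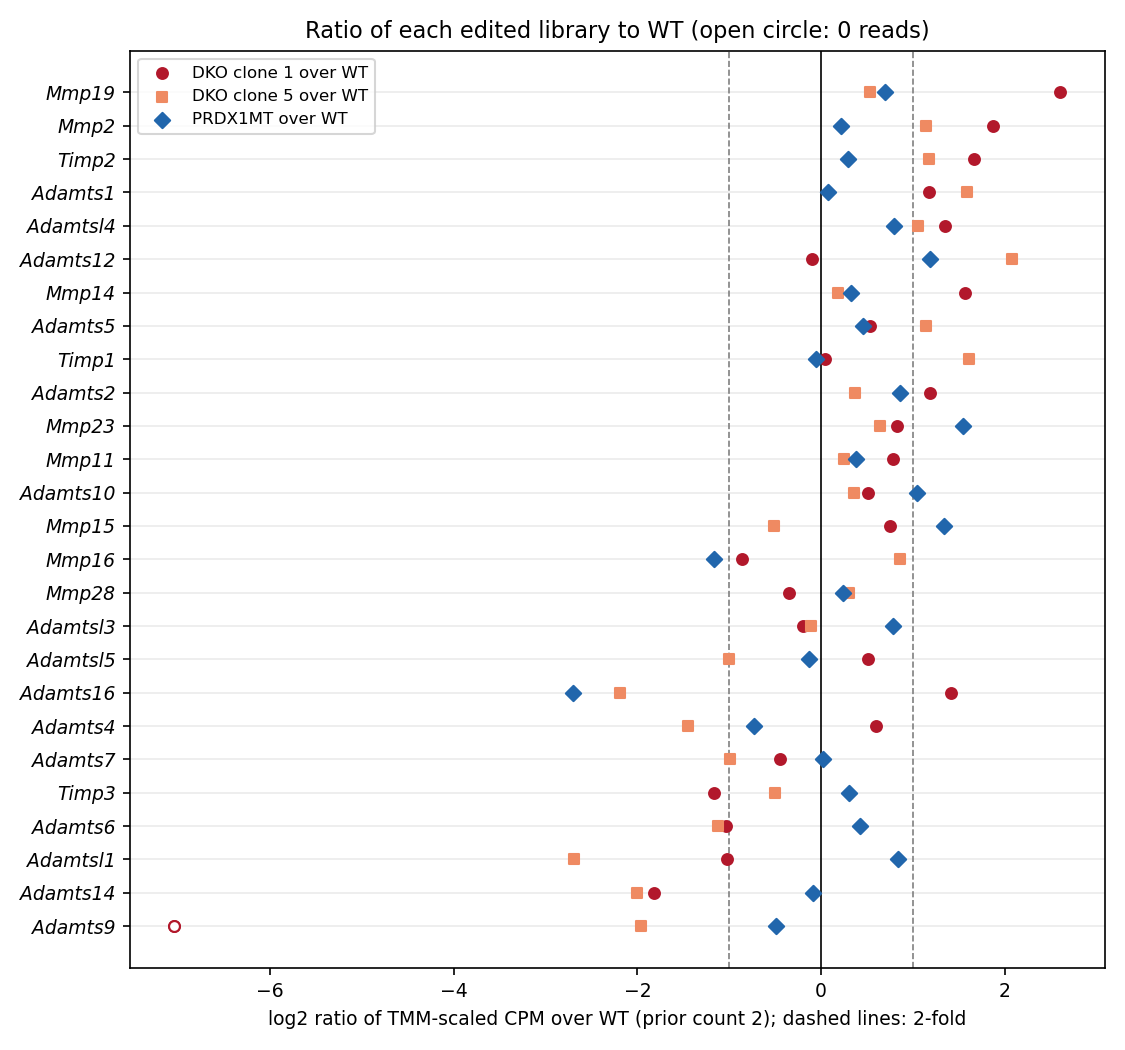
Log2 ratio of TMM-scaled CPM over WT (prior count 2) for each member with at least 100 reads in a pair of libraries, shown for DKO clone 1, DKO clone 5 and PRDX1MT, with dashed lines at 2-fold. The 3 libraries share the WT library. Both DKO symbols lie beyond the right line for Timp2, Mmp2, Adamts1 and Adamtsl4 and beyond the left line for Adamts14, Adamts6, Adamts9 and Adamtsl1, and the open circle of Adamts9 marks 0 reads in clone 1.

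Among the inhibitors, Timp2 was higher and Timp3 lower in the DKO clones. Timp2, which inhibits most Mmp proteins and also bridges Mmp14 to pro-Mmp2 at the cell surface, had 3377 CPM in clone 1 and 2405 CPM in clone 5, against 1313 CPM in PRDX1MT and 1068 CPM in WT. Neither clone overlapped the other libraries. The clones averaged 2891 ± 687 CPM (SD, n = 2), and the log2 ratio of DKO to WT was 1.44 (SE 0.65), with an edgeR Benjamini-Hochberg adjusted p of 1.0. The size-rule ratio to WT was 3.16 (3.13 to 3.20) in clone 1 and 2.25 (2.23 to 2.28) in clone 5. In bulk RNA, more RNA per cell and more cells expressing a gene cannot be told apart.

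Timp3, the matrix-bound inhibitor that also blocks the Adamts proteoglycanases, had 469 CPM in clone 1 and 744 CPM in clone 5, against 1296 CPM in PRDX1MT and 1051 CPM in WT. Both clones were below the other libraries, and the log2 ratio of DKO to WT was -0.79 (SE 0.56, adjusted p = 1.0 in edgeR). Only clone 1 passed the size rule against WT, at 2.24-fold lower. Timp3 shares 21.3% of its exon bases with Syn3 on the other strand, so its counts are uncertain. The ratio of Timp2 to Timp3 in CPM was 7.20 in clone 1, 3.23 in clone 5, 1.01 in PRDX1MT and 1.02 in WT.

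Timp1, a soluble inhibitor that acts weakly on the membrane-type enzymes, was high in 1 clone. It had 66.9 CPM in clone 1 and 198 CPM in clone 5, against 62.4 CPM in PRDX1MT and 65.0 CPM in WT. Clone 5 stood 3.05-fold (2.91 to 3.20) above WT, while clone 1 lay near the PRDX1MT and WT libraries. Timp4, the inhibitor best known from heart and brain, was rare, with 19 reads in clone 1, 9 in clone 5, 2 in PRDX1MT and 0 in WT. Pooled DKO reads put it at least 6.08-fold above WT, computed against 3 counts over the group, and 5.51-fold (1.39 to 47.7) above PRDX1MT. Its unadjusted edgeR p against WT was 0.0212, and its Benjamini-Hochberg adjusted p was 0.694. Timp4 passed the filter on low counts through DKO alone, the group where it was high, so this p is not read as support.

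The gelatinase Mmp2 and the membrane-type enzyme Mmp14 that activates it were the main Mmp genes. Mmp2 had 1137 CPM in clone 1 and 684 CPM in clone 5, against 361 CPM in PRDX1MT and 310 CPM in WT, so the DKO clones lay above both other libraries. The DKO mean was 910 ± 320 CPM (SD, n = 2), with a log2 ratio to WT of 1.55 (SE 0.61, edgeR unadjusted p = 0.0361, Benjamini-Hochberg adjusted p = 0.874). Mmp14 had 1195 CPM in clone 1 and 459 CPM in clone 5, against 506 CPM in PRDX1MT and 404 CPM in WT. Clone 5 lay between PRDX1MT and WT, so the DKO clones overlapped the rest, and the log2 ratio to WT was 1.03 (SE 0.70). Mmp9, the other gelatinase, had 2 to 7 reads in each library.

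Other membrane-type enzymes went different ways in different libraries. Mmp16, a membrane enzyme that can also activate pro-Mmp2, had 70.7 CPM in clone 1 and 233 CPM in clone 5, against 57.4 CPM in PRDX1MT and 129 CPM in WT. WT lay between the DKO clones. Mmp15 had 9.08 and 3.74 CPM in DKO clones 1 and 5, against 13.7 CPM in PRDX1MT and 5.37 CPM in WT, and PRDX1MT was highest. Mmp24, which shares 13.6% of its exon bases with BC029722 on the other strand, and Mmp17 stayed under 1 CPM in all libraries, and Mmp25 had 1 to 3 reads.

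Among the remaining tested Mmp genes, Mmp19 differed most between the clones. This secreted enzyme of basement membrane and matrix had 58.9 CPM in clone 1 and 13.9 CPM in clone 5, against 15.7 CPM in PRDX1MT and 9.62 CPM in WT. Clone 1 stood 6.12-fold (5.50 to 6.83) above WT, but clone 5 lay between PRDX1MT and WT. Mmp19 shares 22.3% of its exon bases with Tmem198b on the other strand. Mmp11, a stromelysin activated inside the cell by furin-type proteases, had 57.2 and 39.5 CPM in DKO clones 1 and 5, 43.0 in PRDX1MT and 33.1 in WT. Mmp28, which shares 12% of its exon bases with 1700020L24Rik on the other strand, had 18.3 to 28.9 CPM across the libraries. Mmp23, which lacks the hemopexin domain of its relatives, had 2.97 and 2.61 CPM in DKO clones 1 and 5, 4.94 CPM in PRDX1MT and 1.65 CPM in WT.

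The proteoglycanase Adamts1 was higher in both DKO clones, and its neighbour Adamts5 passed the size rule in 1 of them. The genes lie in tandem on the minus strand of chromosome 16, with 53059 bp between them, and both encode enzymes that cut versican and aggrecan. Adamts1 had 1154 CPM in clone 1 and 1530 CPM in clone 5, against 539 CPM in PRDX1MT and 510 CPM in WT, with no overlap of DKO and the rest. Its DKO mean was 1342 ± 266 CPM (SD, n = 2), and the log2 ratio to WT was 1.40 (SE 0.59, edgeR unadjusted p = 0.0484, adjusted p = 0.973). Adamts5 had 799 CPM in clone 1 and 1224 CPM in clone 5, against 758 CPM in PRDX1MT and 553 CPM in WT. Both clones were above the others, though clone 1 was close to PRDX1MT, and only clone 5 passed the size rule, at 2.21-fold (2.18 to 2.25) above WT.

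Other proteoglycanases were low. Adamts9 had 0 reads in clone 1, which allows up to 0.0841 CPM, and 56 reads (2.03 CPM) in clone 5, against 143 reads (5.75 CPM) in PRDX1MT and 333 reads (8.09 CPM) in WT. Both clones were below the other libraries, with clone 1 at least 96.2-fold lower than WT (against 3 counts) and clone 5 at a ratio of 0.251 (0.186 to 0.334) to WT. The Adamts9 count is uncertain, since 9.18% of its exon bases lie under A730049H05Rik on the other strand. Adamts9 did not pass in the fit of all groups (adjusted p = 1.0), but it passed where no filter on low counts was applied (edgeR log2 ratio -2.99, adjusted p = 0.00369, with 1.72% of all genes called). It also passed with clone 5 left out and WT and PRDX1MT joined (edgeR adjusted p = 0.0243, with 0.474% of all genes called). Adamts4, an aggrecanase, had 12.2 and 2.91 CPM in DKO clones 1 and 5, 4.82 in PRDX1MT and 8.02 in WT, so the DKO clones stood on either side of the rest.

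Among the procollagen N-proteinases, which trim the amino end of fibrillar procollagens, Adamts14 had the smallest unadjusted p of the family. It had 4.07 CPM in clone 1 and 3.56 CPM in clone 5, against 13.6 CPM in PRDX1MT and 14.5 CPM in WT. The clones lay close together at 3.81 ± 0.358 CPM (SD, n = 2) and below the other libraries. The log2 ratio to WT was -1.92 (SE 0.53, edgeR unadjusted p = 0.00778, Benjamini-Hochberg adjusted p = 0.400). Adamts2, the main enzyme of this group in skin and bone, had 159 and 90.8 CPM in DKO clones 1 and 5, 127 in PRDX1MT and 70.2 in WT. Adamts3 had 0 reads in every library.

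Enzymes that cut cartilage oligomeric matrix protein, Adamts7 and Adamts12, varied by library. Adamts12 had 28.0 CPM in clone 1 and 126 CPM in clone 5, against 68.2 CPM in PRDX1MT and 30.0 CPM in WT. Clone 1 was near WT and clone 5 was 4.22-fold (3.95 to 4.50) above it. Adamts7 had 10.0 and 6.86 CPM in DKO clones 1 and 5, 13.9 in PRDX1MT and 13.7 in WT.

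The fibrillin-associated pair Adamts6 and Adamts10 and the related genes gave a mixed picture. Adamts6 had 5.13 CPM in clone 1 and 4.83 CPM in clone 5, against 14.3 CPM in PRDX1MT and 10.6 CPM in WT, so both clones were below the rest. Its log2 ratio to WT was -1.09 (SE 0.54). Adamts10 had 68.8 and 61.7 CPM in DKO clones 1 and 5, against 99.5 CPM in PRDX1MT and 48.1 CPM in WT. Adamts16 held 135 reads in clone 1, 7 in clone 5, 4 in PRDX1MT and 57 in WT.

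Among the Adamtsl proteins, which bind fibrillin microfibrils or other matrix without cutting it, Adamtsl4 was higher in DKO and Adamtsl1 lower. Adamtsl4, a microfibril-binding protein known from human lens displacement, had 197 CPM in clone 1 and 160 CPM in clone 5, against 134 CPM in PRDX1MT and 77.4 CPM in WT. The clones lay above both other libraries at 179 ± 25.6 CPM (SD, n = 2), with a log2 ratio to WT of 1.21 (SE 0.49, edgeR unadjusted p = 0.0404, adjusted p = 0.903). Adamtsl1 had 42 reads (1.18 CPM) in clone 1 and 9 reads (0.327 CPM) in clone 5, against 110 reads (4.42 CPM) in PRDX1MT and 101 reads (2.45 CPM) in WT. Both clones were below the others.

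Adamtsl3, the most abundant Adamtsl gene, had 466 and 497 CPM in DKO clones 1 and 5, against 924 CPM in PRDX1MT and 535 CPM in WT. PRDX1MT stood alone above the rest, and the log2 ratio of DKO to WT was -0.15 (SE 0.51), less than its error. Adamtsl5 had 48.1 and 16.9 CPM in DKO clones 1 and 5, 30.8 in PRDX1MT and 33.8 in WT. Adamtsl2 had 0 to 3 reads in each library.

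In the comparison of DKO with PRDX1MT, which asks what the clones share against the Prdx1-edited library, none of the 31 members passed edgeR, where 0.206% of all genes passed. DESeq2 called none of 29, where it called 1.17% of all genes. At an unadjusted p under 0.05, edgeR gave 3 members (4.69% of all genes) and DESeq2 gave 7 (3.99% of all genes). The 3 edgeR members, Adamts14, Adamtsl1 and Adamts6, were lower in DKO. Their log2 ratios to PRDX1MT were -1.84 (SE 0.54), -2.53 (SE 0.87) and -1.52 (SE 0.54), with edgeR Benjamini-Hochberg adjusted p of 0.588, 0.814 and 0.839. The median log2 ratio of DKO to PRDX1MT was 0.08 over the 31 members and 0.04 over all genes.

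In the comparison of PRDX1MT with WT, which asks how these genes stand after the Prdx1 edit, each group had 1 library, and ratios have no replicate check. PRDX1MT had 4 of 25 members higher by the size rule (7.25% of all genes) and 1 lower (7.57% of all genes). The higher members were Mmp23 at 2.99-fold (2.21 to 4.09), Mmp15 at 2.54-fold (2.14 to 3.03), Adamts12 at 2.27-fold (2.11 to 2.45) and Adamts10 at 2.07-fold (1.95 to 2.19). Mmp16 was 2.25-fold lower, with a ratio of 0.445 (0.420 to 0.472). Adamts12 and Adamts10 no longer passed when libraries were scaled by total counts, a scaling that moved the median log2 ratio of all genes to -0.28. An edgeR contrast with the spread of the DKO clones called none of the 31 members and 0% of all genes. It had 0 members at an unadjusted p under 0.05, where 4.12% of all genes passed. The median log2 ratio was 0.33 over the 31 members and -0.01 over all genes with TMM scaling, and 0.05 over the members with total counts.

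The DKO clones differed from each other in part of the family. Clone 1 was higher than clone 5 at 6 of 24 members by the size rule (10.7% of all genes) and lower at 3 (7.63% of all genes). Adamts16 was 14.9-fold (7.03 to 37.7) higher in clone 1, Mmp19 4.22-fold (3.79 to 4.72) and Adamts4 4.19-fold (3.29 to 5.39). Adamtsl5 at 2.86-fold, Mmp15 at 2.43-fold and Mmp14 at a log2 ratio of 1.38 were also higher in clone 1. Adamts12 was 4.52-fold, Mmp16 3.30-fold and Timp1 2.96-fold lower in clone 1 than in clone 5.

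The silent cluster on chromosome 9 spans 427 kb (7272514 to 7699585, GRCm38) and holds 9 protein-coding genes, all of them members. In order along the chromosome they are Mmp13, Mmp12, Mmp1b, Mmp3, Mmp10, Mmp8, Mmp27, Mmp20 and Mmp7. They include the genes grouped as collagenases (Mmp13, Mmp8 and Mmp1b), the stromelysins (Mmp3 and Mmp10), the matrilysin Mmp7, the macrophage elastase Mmp12 and the enamel enzyme Mmp20. The 4 libraries held 4 reads over the whole cluster, all in Mmp13, with 1 in DKO clone 1, 1 in DKO clone 5, 0 in PRDX1MT and 2 in WT. At this depth the other 8 genes were not detectable in any library, including both DKO clones.

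**Figure D5:**
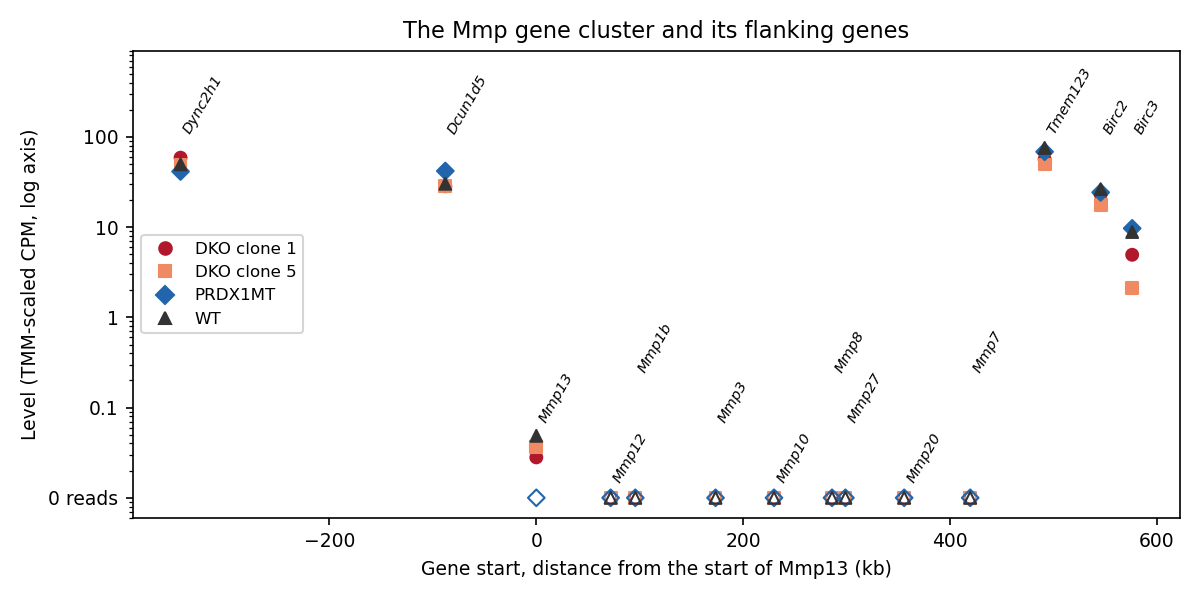
Level of the 9 Mmp cluster genes and of 5 flanking genes (TMM-scaled CPM, log axis) by the distance of their starts from the start of Mmp13 in kb, in the 4 libraries. Open symbols mark 0 reads, which all 4 libraries show for 8 of the 9 cluster genes, while the flanking genes lie between 2.11 and 75.4 CPM.

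The flanks of the cluster were expressed in all libraries. Dync2h1, a cilia motor gene, had 58.8 and 48.3 CPM in DKO clones 1 and 5, 41.3 in PRDX1MT and 49.6 in WT. Tmem123 had 49.5 to 75.4 CPM, Dcun1d5 28.3 to 41.8 CPM, Birc2 17.7 to 26.3 CPM and Birc3 2.11 to 9.69 CPM. Besides the cluster, Adamts3, Adamts18 and Adamts19 had 0 reads everywhere, and Adamts8, Adamts13, Adamts15 and Adamts20 had 0 to 9 reads in each library.

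Other genes of matrix proteolysis and its substrates were followed as lists. Of 31 tested protease and inhibitor genes outside the family, none passed edgeR in DKO against WT (0.468% of all genes), with 5 at an unadjusted p under 0.05 (5.08% of all genes) and 3 called by DESeq2 (1.46% of all genes). In DKO against PRDX1MT, 1 of 31 fell, where 0.206% of all genes were called: Pcsk6, a proprotein convertase that activates other secreted proteins. It had 0.0841 and 0.944 CPM in DKO clones 1 and 5, against 99.0 CPM in PRDX1MT and 19.9 CPM in WT (edgeR adjusted p = 0.0461 against PRDX1MT and 0.0869 against WT). That call was lost with both other scalings, with the 1 CPM minimum, with only the groups compared and with clone 1 left out. Of 24 tested substrates, 1 rose and 1 fell in DKO against WT, where 0.468% of all genes were called. At an unadjusted p under 0.05 edgeR gave 7 of them (5.08% of all genes), and DESeq2 called 4 (1.46%). Against PRDX1MT, edgeR called 0 substrates (0.206% of all genes) and gave 6 at an unadjusted p under 0.05 (4.69%), and DESeq2 called 2 (1.17%). Eln, elastin, rose to 4273 and 2006 CPM in DKO clones 1 and 5, with 850 CPM in PRDX1MT, against 35.5 CPM in WT (edgeR adjusted p = 0.0441). Acan, the aggrecan core protein cut by the Adamts proteoglycanases, fell to 0.112 and 0 CPM in DKO clones 1 and 5, with 0.121 CPM in PRDX1MT, against 17.1 CPM in WT (adjusted p = 0.0321 in edgeR). Acan passed the filter on low counts through WT alone, and the 1 CPM minimum removed it before testing. The Eln call was lost with both other scalings and with the 1 CPM minimum, and neither gene was called with either clone left out and WT and PRDX1MT joined.

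The AP-1 subunits, whose motif stands before most of the cluster genes, differed by library without passing the test. None of 11 tested subunits passed edgeR in DKO against WT (0.468% of all genes) or against PRDX1MT (0.206%). At an unadjusted p under 0.05, edgeR gave 1 against WT (5.08% of all genes) and 0 against PRDX1MT (4.69%). DESeq2 called 0 in either contrast (1.46% and 1.17% of all genes). By the size rule against WT, clone 1 had 9 of 11 subunits higher (8.4% of all genes) and 0 lower (7.56%). Clone 5 had 0 of 11 higher (5.69% of all genes) with 2 lower (8.58%), and PRDX1MT had 9 of 11 higher (7.25% of all genes) with 1 lower (7.57%). Fos had 1327 CPM in clone 1 and 211 CPM in clone 5, against 727 CPM in PRDX1MT and 350 CPM in WT, while Junb had 1338 CPM in clone 1, 310 in clone 5, 1003 in PRDX1MT and 222 in WT. The cluster genes had the reads given above in the libraries with high and with low Fos. The part of AP-1 in any of these values was not tested.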

How the data were processed

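Bulk RNA of 4 C3H10T1/2 libraries was analysed: DKO (2 clones), PRDX1MT (1) and WT (1). Per the labels' protocols, stranded total RNA libraries were made after ribosomal RNA removal; alignment was by STAR 2.6.1d to mm10, per the submitters' processing notes. For counting, no program, annotation or strand setting is given in the sources used here. The authors deposited raw whole-number counts for each gene. GENCODE M21 gave names for 54495 identifiers; 37 were kept unnamed.

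Counts were fitted in R 4.3.3 with edgeR 4.0.16 and limma 3.58.1 (TMM scaling, filterByExpr by group, quasi-likelihood test, Benjamini-Hochberg adjusted p under 0.05 over 19446 genes), with DESeq2 1.42.0 as an alternative. Residual degrees of freedom were 1, prior degrees of freedom 6.54 and the common dispersion 0.187. The size rule used a prior count of 2. Levels per kilobase divide CPM by the merged exon length. PCR reads are not independent molecules, so intervals and floors cover counting error only.

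Values in every library were given for each Timp, members passing in either DKO test, members past the size rule in both clones, members past it in PRDX1MT and the 10 highest per kilobase. Other members named for their values were chosen after those were seen. The members, roles and lists were chosen with earlier results of these data known. Promoter sequences came from RefSeq (GRCm38.p6).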

Additional observations from a re-analysis of the deposited data

How the results depend on the processing

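No member passed the adjusted test in DKO against WT or PRDX1MT with DESeq2, other scalings, a minimum of 1 CPM in 2 libraries or only the groups compared. Without a filter on low counts, 1 member (Adamts9) passed against WT and 0 against PRDX1MT. At an unadjusted p under 0.05 edgeR gave 5 members against WT and 3 against PRDX1MT, where 5.08% and 4.69% of all genes passed. Leaving out 1 clone required WT and PRDX1MT to be joined, which is 1 fit for both contrasts, and it gave 0 to 1 members, the 1 (without clone 5) being Adamts9. The size rule at 4-fold kept 0 in PRDX1MT against WT (5 at 2-fold), 2 in clone 1 (13), 3 in clone 5 (12), 0 in both clones (8) and 4 between the clones (9). At 1.5-fold there were 11 in PRDX1MT and 14 between the clones. The shares of all genes at 4-fold and 1.5-fold are not given here, so these counts show only how the member counts follow the cut-off. In PRDX1MT, total-count scaling left 3 and the edgeR contrast 0. With total-count scaling clone 5 had 6 higher and 7 lower in place of 7 and 5: Adamtsl4 no longer passed and Adamtsl5 and Adamts7 newly passed as lower, and with median-of-ratios scaling Adamtsl1 no longer passed in clone 1. Total-count scaling moved the median log2 ratio to WT of all genes to -0.28 in PRDX1MT, -0.14 in clone 1 and -0.16 in clone 5. Under it the small PRDX1MT to WT ratios of Mmp2 and Adamts1 turned below 0 (log2 -0.05 and -0.20, against 0.22 and 0.08). No named member was called by the adjusted test in the main fit, and only Adamts9 was called under other settings. For the other named members, the side of the threshold says nothing on stability. With 1 clone left out, 5 of 76 log2 ratios of named members changed sign. Without clone 5 these were Mmp16 (-0.87 against 0.24) and Adamts12 (-0.10 against 1.36) over WT and Adamts12 over PRDX1MT (-1.28 against 0.18). Without clone 1 they were Mmp15 over WT (-0.51 against 0.26) and Mmp14 over PRDX1MT (-0.14 against 0.71).

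Alternatives for the related genes, and those between clones, were added after seeing the data. Against WT, 2 of the 66 related genes passed, against 7 with DESeq2, 1 with median-of-ratios scaling, 1 with total counts, 9 with no filter, 0 with the 1 CPM minimum, 13 at an unadjusted p and 1 to 4 with a clone left out. Against PRDX1MT, 1 passed, against 4 with DESeq2, 4 with no filter, 9 unadjusted, 0 with either other scaling, with the 1 CPM minimum and with only the groups compared, and the same joined fits again gave 1 to 4 with a clone left out. The share of all genes called also changed with the setting. Against WT it was 0.468% with edgeR, 1.46% with DESeq2, 1.72% with no filter and 5.08% at an unadjusted p in edgeR. Against PRDX1MT it was 0.206% with edgeR, 1.17% with DESeq2 and 4.69% at an unadjusted p in edgeR. Shares at the other settings are not given here. The cause of these changes was not tested.

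No paired analysis was possible because WT and PRDX1MT have 1 library each, so the groups share fewer than 2 replicate numbers. One library per unedited or Prdx1-edited state limits every comparison, and 8 members with reads held too few to be tested.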
